A study of Mus musculus with 9 samples.

Results

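Type I interferon response genes were examined in the mouse hippocampus: 35 genes that interferons induce or that carry the interferon signal, taken by symbol from the 33175 genes with deposited FPKM values. All 35 were found, and 34 had enough reads to be tested among 17396 genes. RNA came from female mice aged 9 months, in 9 libraries of 3 groups with 3 libraries each. WT vehicle mice were C57BL/6J and received blank solvent by mouth 4 times a week. 3xTg vehicle mice received the same solvent, and 3xTg LP-10d mice were dosed orally with LP-10d (10 mg/kg, 4 doses weekly, over 1 month). The labels give the 3xTg genotype as APPSwe, tau P301L and a PS1 change, which is M146V, the change the 3xTg line is known for, in the first 3xTg library. The number in that label rises by 1 with each following 3xTg library, up to M151V, a run that may be an error of the labels and was not taken as a difference between the mice. The labels name no strain background for the 3xTg mice, so an effect of the transgenes and one of strain cannot be told apart. Nothing in them states whether the replicates were different animals, and p-values then measure only the spread between these samples.

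Type I interferons bind the receptor IFNAR, whose kinases JAK1 and TYK2 activate STAT2. STAT2 and IRF9 are subunits of the complex ISGF3, which binds interferon-stimulated response elements in the promoters of its target genes. In the brain, microglia, astrocytes and neurons can respond to interferon, and a low basal activity of the pathway keeps many of its genes expressed without infection.

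Total counts ran from 16582086 to 19170969 per library. Levels are CPM, reads of a gene relative to all counted reads of its library, with library sizes scaled by TMM. All 10 hippocampal marker genes were detected, with summed levels of 705 to 1311 CPM. 2 libraries stood apart. In WT vehicle replicate 3, 5.04% of counts were mitochondrial, against 2.28% to 2.86% in the other libraries, and markers of striatum and thalamus summed to 624 CPM. In 3xTg vehicle replicate 2 the striatum and thalamus markers summed to 1514 CPM, against 230 to 324 CPM in the remaining 7 libraries, and hippocampal markers were lowest. Markers of choroid plexus also varied within every group: they summed to 230, 6295 and 3871 CPM in WT vehicle replicates 1 to 3, to 1532, 345 and 192 CPM in 3xTg vehicle, and to 2189, 3950 and 194 CPM in 3xTg LP-10d. Results without each of the 2 libraries that stood apart are given after those of the single genes.

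Promoters were read for 28 of the 35 genes from RefSeq on build GRCm38.p6, as windows from 250 bases before the gene start to 50 after it. The core of the response element was searched on both strands as GAAA, any 2 bases and GAAA again; overlapping matches were counted separately. The 250 bases before the start are shown for 5 genes that hold the element, with the element in capitals. Isg15 and Ifit3 varied widely among the wild-type libraries. Ifi203, Gbp3 and Trim30a had mean levels below wild type in both 3xTg groups. Gbp3 overlapped wild type in 3xTg vehicle, and Trim30a did in 3xTg LP-10d. Each sequence is written 5′ to 3′ on the strand of the gene, and capitals that begin with TTTC are the element in reverse orientation. Trim30a has 2 RefSeq starts, of which the upstream one is shown.

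Isg15 (chr4:156200819-156201068, minus strand): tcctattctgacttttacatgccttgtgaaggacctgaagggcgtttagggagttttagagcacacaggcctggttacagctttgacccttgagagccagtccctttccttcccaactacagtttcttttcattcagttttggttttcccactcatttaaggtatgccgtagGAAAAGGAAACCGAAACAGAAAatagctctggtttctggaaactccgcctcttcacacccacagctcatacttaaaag
Ifit3 (chr19:34583279-34583528, plus strand): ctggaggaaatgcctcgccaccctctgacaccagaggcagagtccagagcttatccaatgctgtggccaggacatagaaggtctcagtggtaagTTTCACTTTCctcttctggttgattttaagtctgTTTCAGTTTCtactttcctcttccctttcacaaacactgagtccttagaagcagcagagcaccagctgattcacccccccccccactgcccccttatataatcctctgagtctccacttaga
Ifi203 (chr1:173942493-173942742, minus strand): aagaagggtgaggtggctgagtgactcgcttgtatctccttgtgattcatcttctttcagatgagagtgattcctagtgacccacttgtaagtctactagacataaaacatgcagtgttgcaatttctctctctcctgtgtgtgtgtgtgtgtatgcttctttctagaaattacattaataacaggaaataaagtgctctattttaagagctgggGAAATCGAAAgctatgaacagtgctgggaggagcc
Gbp3 (chr3:142559794-142560043, plus strand): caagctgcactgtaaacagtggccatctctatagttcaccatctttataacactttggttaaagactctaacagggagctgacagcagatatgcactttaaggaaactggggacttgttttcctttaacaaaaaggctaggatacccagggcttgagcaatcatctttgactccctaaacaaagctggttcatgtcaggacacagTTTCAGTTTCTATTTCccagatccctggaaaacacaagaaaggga
Trim30a (chr7:104465194-104465443, minus strand): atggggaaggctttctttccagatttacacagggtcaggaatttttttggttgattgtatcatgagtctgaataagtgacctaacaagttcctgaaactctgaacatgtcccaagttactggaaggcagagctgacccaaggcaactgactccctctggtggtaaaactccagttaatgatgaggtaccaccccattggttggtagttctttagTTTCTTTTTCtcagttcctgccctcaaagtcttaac

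The element was present in 16 of the 28 promoters (57.1%), counted by gene, against 3.99% of all 27025 genes in the table. It was absent from the other 12: Irf1, Irf7, Irf9, Ifit2, Oasl2, Samhd1, Trim25, Sp100, Ifi44, Ifi35, Xaf1 and Lgals3bp. Counted by window, it was in 17 of 35 windows of these genes and in 3.44% of all 32851. Isg15 held 3 overlapping copies within the first 78 bases before the start, Ifit3 held 2 separate copies, Gbp3 held 2 that overlap, and Ifi203 held 1. The match in Stat2 lay farthest upstream, starting 222 bases before the gene start, and those of Ddx58, Eif2ak2, Ifih1 and Trim12a lay after it. The shorter element TTCNNNGAA, to which STAT dimers bind, was in 8 of the 28 promoters (28.6%) and in 9.55% of all genes, or 8.3% of all windows. It was found in Irf1, a gene known for induction by interferon gamma, and in Gbp7. A match is only a run of letters and does not show binding.

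**Figure D1:**
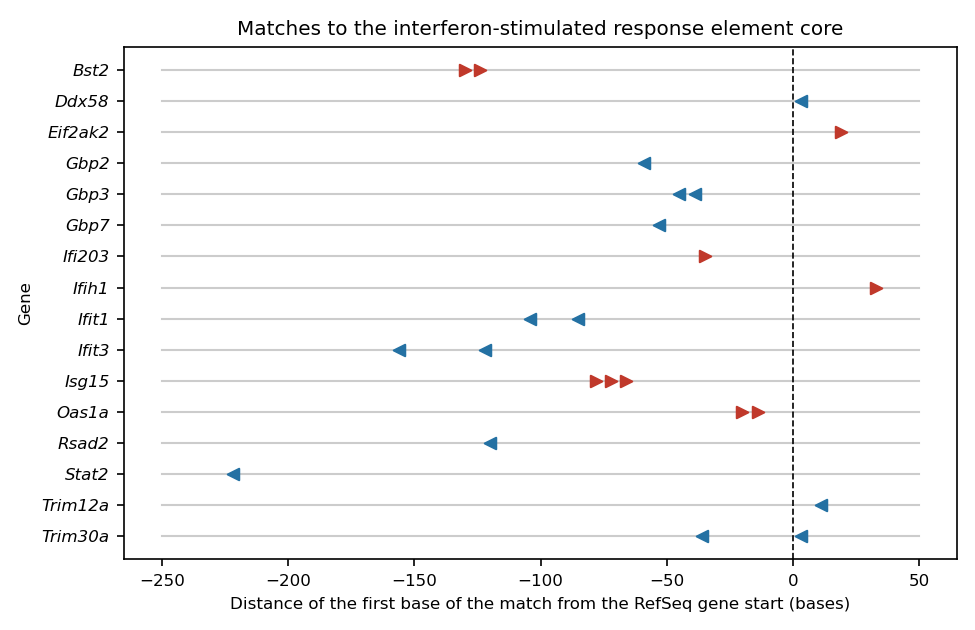
Position of each match to the response element core in the 16 promoters that hold one, as the distance in bases of its first base from the RefSeq gene start (x axis). Red triangles are matches read in the direction of the gene, blue triangles are reverse matches, and grey lines span the window searched. Most matches lie within 160 bases upstream of the start.

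Per length of transcript (FPKM), the highest of the 35 genes in WT vehicle was Ifi27, a mitochondrial and nuclear envelope protein, at 32.6 ± 17.2 FPKM (mean ± SD, n = 3). Lgals3bp, a secreted galectin-binding glycoprotein, had 19.6 ± 8.24 FPKM, and Bst2, the membrane tether that holds budding virus, had 14.9 ± 10.3 FPKM. These levels overlapped between libraries, so their order was not resolved. The next were Stat2 at 7.51 ± 0.618 FPKM, Ifit3 at 4.73 ± 2.43 FPKM and Isg15 at 4.02 ± 2.0 FPKM. Over all 9 libraries, 4 genes had a mean of at least 5 FPKM and 17 had a mean under 1 FPKM. Zbp1, a sensor of left-handed nucleic acid, was lowest at 0.17 ± 0.0896 FPKM in WT vehicle and was the gene not tested.

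Most of these genes had lower levels in the 3xTg hippocampus than in wild type. The genes were chosen with earlier results of these data known. The shares set beside those of all genes, here and below, therefore describe the list and do not test it. In 3xTg vehicle against WT vehicle, 33 of 34 tested genes had a fitted log2 fold change below 0, against 49.8% of all genes tested, and the median was -0.47 against 0.0007 for all genes. None of the 34 passed edgeR's quasi-likelihood test at an adjusted p of 0.05, a threshold that 1 gene in the whole table (0.00575%) passed. At an unadjusted p under 0.05, 14 were lower and 0 higher, against 7.08% lower and 7% higher over all genes. Libraries of the 2 groups did not overlap for 15 genes, all lower in 3xTg vehicle, against 7.99% of all genes lower and 9.38% higher. DESeq2 passed 3 of the 33 genes to which it gave an adjusted p, all lower, against 0.714% of all genes: Ifi203, Sp100 and Lgals3bp. The exception to the direction was Dhx58, the regulatory helicase LGP2, with a log2 fold change of 0.0034.

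**Figure D2:**
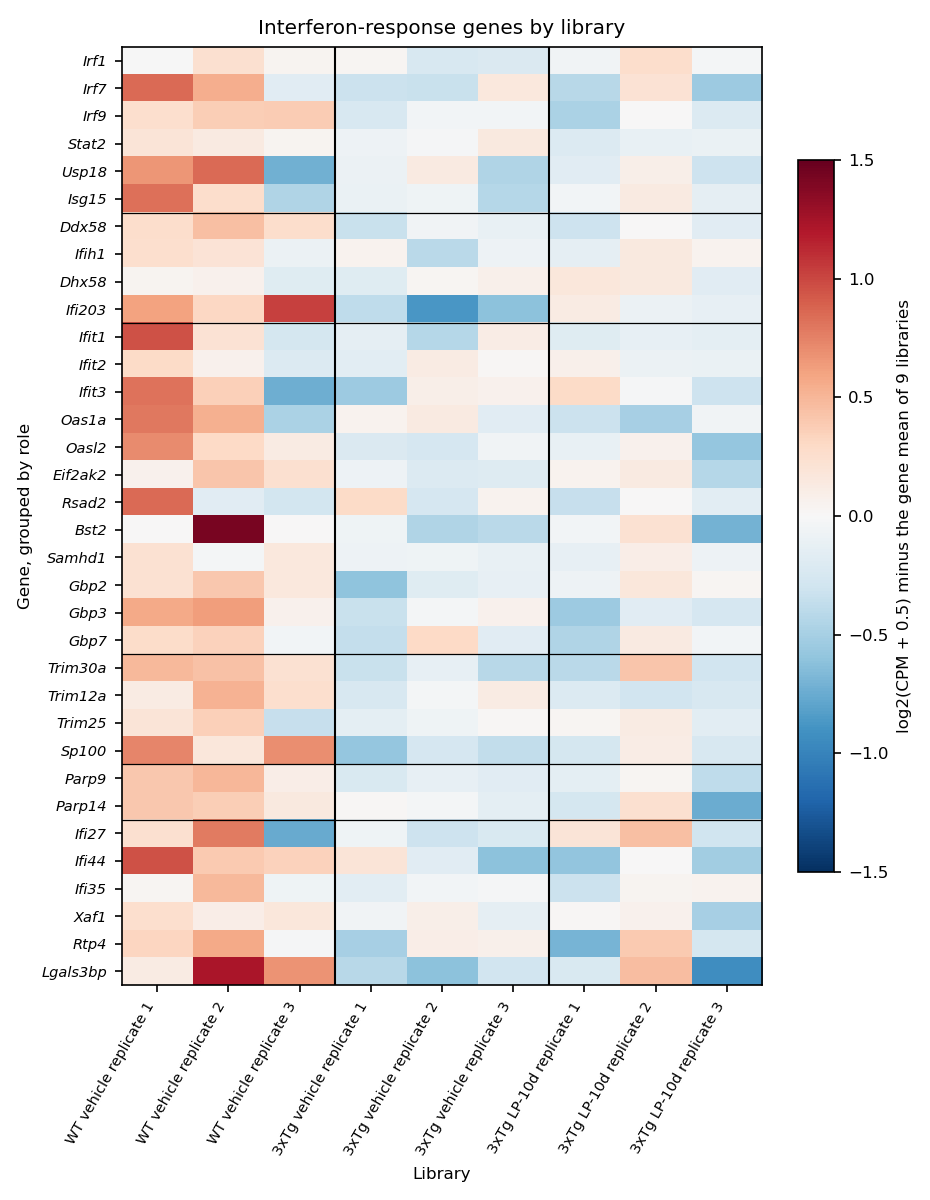
Each of the 34 tested genes (rows, grouped by role) in each of the 9 libraries (columns, with vertical lines between groups), as log2(CPM + 0.5) minus the mean of that gene over the 9 libraries. Red is above and blue below the mean. WT vehicle replicates 1 and 2 are red over nearly the whole set, WT vehicle replicate 3 is mixed, and most 3xTg cells are pale or blue.

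By library, the median deviation of the 34 genes from their own mean was 0.28, 0.37 and 0.04 in WT vehicle replicates 1 to 3 on the log2 scale. It was -0.16, -0.07 and -0.12 in 3xTg vehicle, and -0.18, 0.09 and -0.22 in 3xTg LP-10d. The 3 WT vehicle values lay above all 3 of 3xTg vehicle, while treated replicate 2 lay above WT vehicle replicate 3. Summed levels of 16 microglial markers spanned 492 to 620 CPM in the WT vehicle libraries, 585 to 636 CPM for 3xTg vehicle and 540 to 593 CPM after LP-10d. None of the 16 passed the test between vehicle groups, and their median log2 fold change was 0.11, above 0. In whole tissue, fewer cells of a type and less RNA per cell cannot be told apart. Endothelial markers summed to 267 to 311 CPM in wild type and 279 to 329 CPM in the 3xTg vehicle libraries, with 6 of 12 lower. Of the other marker lists, 5 were mostly lower and 3 mostly higher in 3xTg vehicle. Below 0 were all 12 choroid plexus markers (median log2 fold change -2.44), 9 of 10 hippocampal markers (-0.51), 8 of 10 oligodendrocyte markers (-0.29), 8 of 10 markers of meninges and perivascular fibroblasts (-0.21) and 9 of 12 astrocyte markers (-0.20). Higher were 5 of 6 tested blood markers (median 1.02), 8 of 14 striatum and thalamus markers (0.79) and 5 of 6 tested leukocyte markers (0.13). None of these markers passed the adjusted test, and their part in the levels of the interferon genes was not tested.

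**Figure D3:**
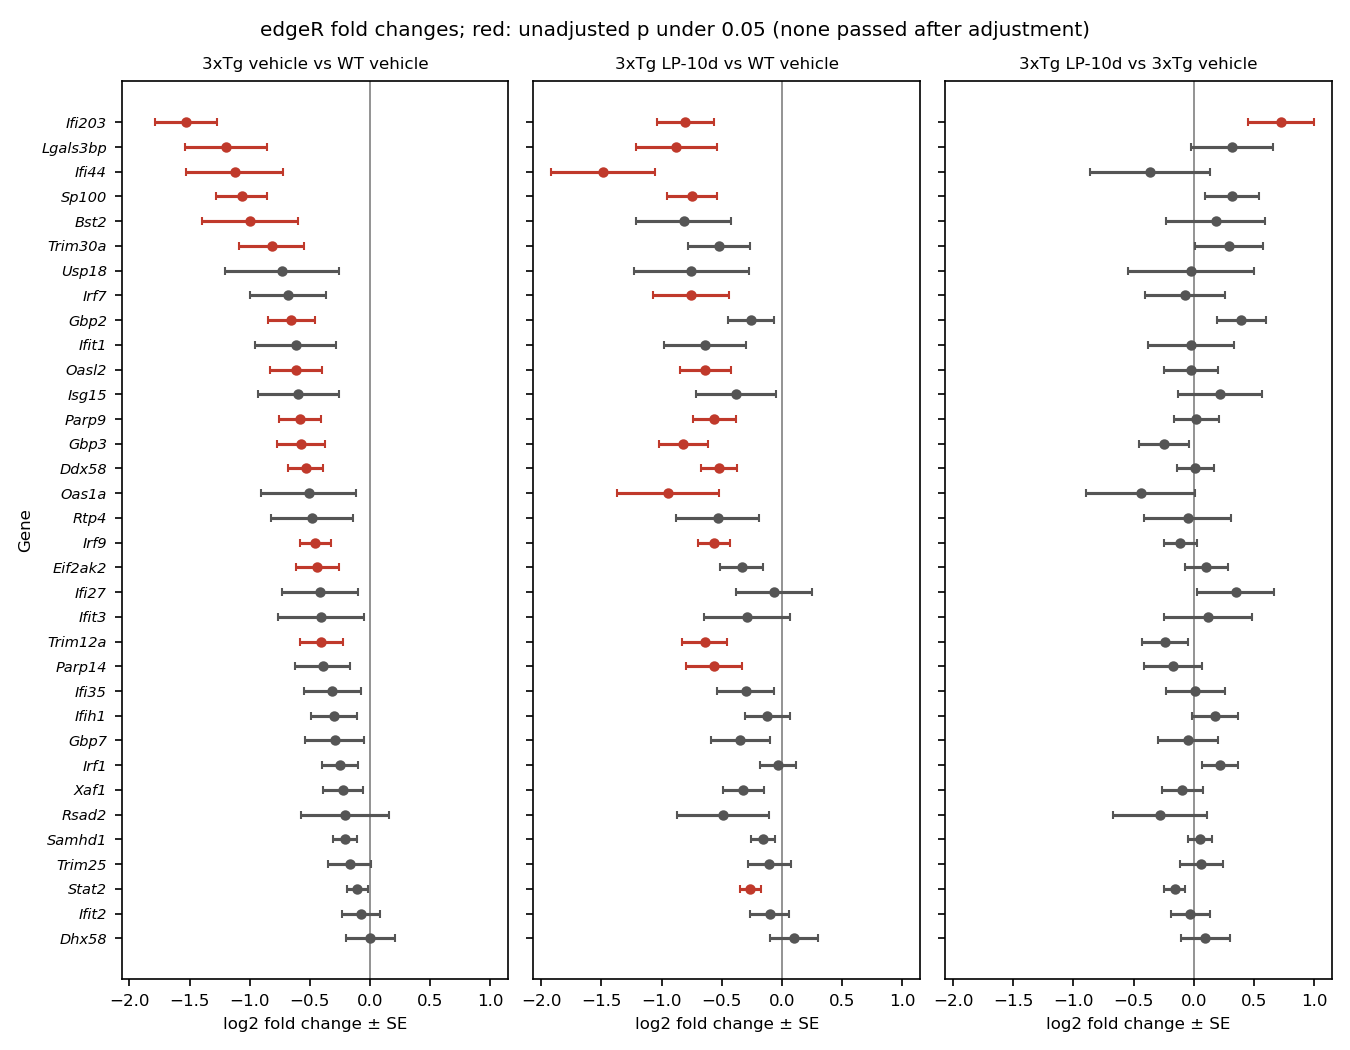
Fitted log2 fold change with its standard error for the 34 tested genes in the 3 comparisons, ordered by the first; red marks an unadjusted p under 0.05. Both comparisons with wild type lie almost wholly left of 0, and the comparison of treated with untreated 3xTg mice is spread around 0.

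Among the signalling and transcription regulators, all 6 tested genes had fold changes below 0 in 3xTg vehicle. Irf9, the DNA-binding subunit of ISGF3, stood at 19.1, 20.8 and 21.1 CPM in WT vehicle replicates 1 to 3, at 13.5, 15.5 and 15.6 CPM in 3xTg vehicle, and at 11.4, 16.0 and 13.8 CPM in 3xTg LP-10d. Every 3xTg library was below every WT library. The log2 fold change from wild type was -0.45 ± 0.13 (SE) in 3xTg vehicle (edgeR adjusted p = 0.214) and -0.56 ± 0.13 in 3xTg LP-10d (edgeR adjusted p = 0.487). Irf9 overlaps Rnf31 (mean count 818.6) on the same strand, so strand cannot separate their shared reads. On the opposite strand, Irf7 overlaps Phrf1 (mean count 1445), Parp9 overlaps Dtx3l (92.4) and Rtp4 overlaps Masp1 (189.9). The strand setting of the counts is not known, so reads in these shared parts cannot be told apart either.

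Stat2, the partner of Irf9 in ISGF3, had 47.6, 45.6 and 42.9 CPM in WT vehicle, 39.4, 41.2 and 46.0 in 3xTg vehicle, and 36.2, 38.4 and 38.9 CPM in 3xTg LP-10d. The treated libraries lay below all 6 others, while the vehicle groups overlapped. Its log2 fold change in 3xTg LP-10d was -0.26 ± 0.09 from WT vehicle (edgeR adjusted p = 0.549) and -0.16 ± 0.09 from 3xTg vehicle (edgeR adjusted p = 1). Irf7, which amplifies interferon production, had 7.60, 6.08 and 3.50 CPM in WT vehicle, 3.10, 3.07 and 4.52 in 3xTg vehicle, and 2.88, 4.74 and 2.58 CPM in 3xTg LP-10d. WT vehicle replicate 3 fell within the 3xTg range. The log2 fold change of Irf7 was -0.68 ± 0.31 in 3xTg vehicle and -0.76 ± 0.32 in 3xTg LP-10d against wild type (edgeR adjusted p = 0.36 and 0.569). Usp18 and Isg15, the deconjugating enzyme and the ubiquitin-like protein it removes, had values of -0.73 ± 0.47 and -0.60 ± 0.34 in 3xTg vehicle. Irf1, a factor of both interferon types, had -0.25 ± 0.15.

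Among the sensors, Ifi203 differed most. This member of the HIN-200 family of DNA-binding proteins stood at 4.23, 3.35 and 5.84 CPM in WT vehicle, 1.89, 1.19 and 1.53 in 3xTg vehicle, and 2.88, 2.43 and 2.36 CPM in 3xTg LP-10d. The 3 groups did not overlap at all, with the treated libraries between the others. In 3xTg vehicle its level was 0.347 of wild type, a log2 fold change of -1.53 ± 0.26, which missed the threshold in edgeR (adjusted p = 0.0844) and passed it in DESeq2 (adjusted p = 0.000337). In 3xTg LP-10d it was 0.73 ± 0.28 above 3xTg vehicle on the log2 scale (edgeR adjusted p = 1) and -0.80 ± 0.24 from wild type (edgeR adjusted p = 0.527).

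Ddx58, which encodes the viral RNA sensor RIG-I, had 7.20, 8.28 and 7.23 CPM in WT vehicle, 4.58, 5.68 and 5.45 in 3xTg vehicle, and 4.68, 5.93 and 5.21 CPM in 3xTg LP-10d. All 6 3xTg libraries were below the 3 WT libraries, and the 2 3xTg groups overlapped. Its log2 fold change was -0.53 ± 0.15 in 3xTg vehicle (edgeR adjusted p = 0.2) and -0.52 ± 0.15 in 3xTg LP-10d (edgeR adjusted p = 0.527). The related sensor Ifih1, or MDA5, had -0.30 ± 0.19 in 3xTg vehicle and overlapped. Zbp1 had 0.914, 0.629 and 0.278 CPM in the WT vehicle libraries, with 0.316, 0.227 and 0.272 CPM for 3xTg vehicle. Its levels in 3xTg LP-10d were 0.282, 0.178 and 0.22 CPM.

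The 12 antiviral effectors all had fold changes below 0 in both 3xTg groups against wild type. Gbp2, a guanylate-binding GTPase that acts on pathogen vacuoles, had 3.48, 3.98 and 3.28 CPM in WT vehicle, 1.74, 2.5 and 2.61 in 3xTg vehicle, and 2.71, 3.32 and 2.96 CPM in 3xTg LP-10d. The treated libraries lay above all 3 of 3xTg vehicle and overlapped WT vehicle. Its log2 fold change was -0.65 ± 0.20 in 3xTg vehicle against wild type (edgeR adjusted p = 0.225) and 0.39 ± 0.20 in 3xTg LP-10d against 3xTg vehicle (edgeR adjusted p = 1). Its neighbour Gbp3 had 8.91, 9.33 and 6.12 CPM in WT vehicle, 4.53, 5.73 and 6.15 in 3xTg vehicle, and 3.84, 5.16 and 4.83 CPM in 3xTg LP-10d. Unlike Gbp2, it was not higher in treated libraries: the log2 fold change from wild type was -0.57 ± 0.20 in 3xTg vehicle and -0.82 ± 0.20 in 3xTg LP-10d (edgeR adjusted p = 0.277 and 0.496). The difference between the 2 genes was not tested.

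Oasl2, an oligoadenylate synthetase-like protein, had 9.77, 7.23 and 6.34 CPM in WT vehicle, 4.89, 4.77 and 5.55 in 3xTg vehicle, and 5.31, 6.05 and 3.68 CPM in 3xTg LP-10d. Both 3xTg groups lay wholly below wild type, at log2 fold changes of -0.61 ± 0.21 and -0.64 ± 0.21 (edgeR adjusted p = 0.275 and 0.555). Oas1a, whose product activates RNase L, had 2.17, 1.73 and 0.612 CPM in WT vehicle, 1.11, 1.19 and 0.871 in 3xTg vehicle, and 0.734, 0.593 and 0.988 CPM in 3xTg LP-10d. Here WT vehicle replicate 3 was within the 3xTg range, and the fold changes were -0.51 ± 0.40 and -0.95 ± 0.42 (edgeR adjusted p = 0.567 and 0.569). Eif2ak2 encodes PKR, which halts translation on sensing double-stranded RNA. It had 6.63, 8.59 and 7.51 CPM in WT vehicle, 5.95, 5.39 and 5.45 in 3xTg vehicle, and 6.55, 7.0 and 4.56 CPM in 3xTg LP-10d, so the vehicle groups did not overlap and the treated group overlapped both. The fold change in 3xTg vehicle was -0.44 ± 0.18 on the log2 scale (edgeR adjusted p = 0.319).

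Bst2 had 8.51, 23.5 and 8.51 CPM in WT vehicle, 8.05, 6.07 and 6.26 in 3xTg vehicle, and 8.18, 10.0 and 4.995 CPM in 3xTg LP-10d. WT vehicle replicate 2 stood far above the rest, and the gap between the vehicle groups was otherwise small. Its log2 fold change was -0.995 ± 0.40 in 3xTg vehicle (edgeR adjusted p = 0.314). Choroid plexus markers were also highest in WT vehicle replicate 2 and, among the treated, in replicate 2; their part in this value was not tested. Ifit1, Ifit2 and Ifit3, which bind viral RNA, had values of -0.62 ± 0.33, -0.07 ± 0.16 and -0.41 ± 0.36. Rsad2, or viperin, had -0.21 ± 0.37, and Samhd1, a nucleotide hydrolase, had -0.21 ± 0.10 with groups that did not overlap.

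All 4 TRIM and nuclear body genes had fold changes below 0 in both 3xTg groups against wild type. Sp100, a scaffold of promyelocytic leukaemia nuclear bodies, stood at 7.03, 4.61 and 6.84 CPM in WT vehicle, 2.53, 3.29 and 3.00 in 3xTg vehicle, and 3.27, 4.39 and 3.35 CPM in 3xTg LP-10d. No 3xTg library reached a WT library. Its level in 3xTg vehicle was 0.478 of wild type, a log2 fold change of -1.07 ± 0.21, with an adjusted p of 0.104 in edgeR and 0.00407 in DESeq2. In 3xTg LP-10d it was -0.75 ± 0.21 (edgeR adjusted p = 0.527). Trim30a, a restrainer of NF-kB signalling, had 3.37, 3.25 and 2.73 CPM in WT vehicle, 1.68, 2.04 and 1.58 in 3xTg vehicle, and 1.58, 3.20 and 1.76 CPM in 3xTg LP-10d. Treated replicate 2 was at the wild-type level and the other 2 treated libraries were at that of 3xTg vehicle. The log2 fold change in 3xTg vehicle was -0.82 ± 0.27 (edgeR adjusted p = 0.251).

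Trim12a, a relative of the retroviral restriction factor TRIM5, had 3.48, 4.72 and 3.84 CPM in WT vehicle, 2.58, 3.07 and 3.49 in 3xTg vehicle, and 2.65, 2.49 and 2.58 CPM in 3xTg LP-10d. Only the treated group lay wholly below wild type, at -0.64 ± 0.19 (edgeR adjusted p = 0.527), with -0.40 ± 0.18 for 3xTg vehicle (edgeR adjusted p = 0.352). Of the ADP-ribosyltransferases, Parp9 had 5.37, 5.77 and 4.23 CPM in WT vehicle, 3.26, 3.58 and 3.43 in 3xTg vehicle, and 3.50, 4.03 and 2.91 CPM in 3xTg LP-10d. Both 3xTg groups lay below wild type, at log2 fold changes of -0.58 ± 0.18 and -0.56 ± 0.18 (edgeR adjusted p = 0.231 and 0.535). Parp14 had 7.08, 6.92 and 5.84 CPM in WT vehicle, 5.31, 5.11 and 4.68 in 3xTg vehicle, and 4.29, 6.28 and 2.91 CPM in 3xTg LP-10d. Its vehicle groups did not overlap, with a log2 fold change of -0.39 ± 0.23 (edgeR adjusted p = 0.46), and the treated libraries spread from the lowest of the 9 to within the wild-type range.

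Of the other induced genes, Lgals3bp had 36.4, 79.1 and 53.7 CPM in WT vehicle, 24.9, 21.7 and 27.3 in 3xTg vehicle, and 28.6, 46.4 and 17.3 CPM in 3xTg LP-10d. The vehicle groups did not overlap, and treated replicate 2 lay within the wild-type range. Its log2 fold change in 3xTg vehicle was -1.20 ± 0.34, with an adjusted p of 0.208 in edgeR and 0.0173 in DESeq2. The order of the libraries for Lgals3bp was that of the choroid plexus markers both within WT vehicle and within 3xTg LP-10d, though not within 3xTg vehicle. Their part in this value was not tested. Ifi44, at a mean of 0.844 CPM, had -1.13 ± 0.40 in 3xTg vehicle and -1.49 ± 0.43 in 3xTg LP-10d (edgeR adjusted p = 0.286 and 0.527). Xaf1, a regulator of apoptosis inhibitors, had -0.22 ± 0.17 with vehicle groups that did not overlap, while Ifi35, Rtp4 and Ifi27 overlapped.

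**Figure D4:**
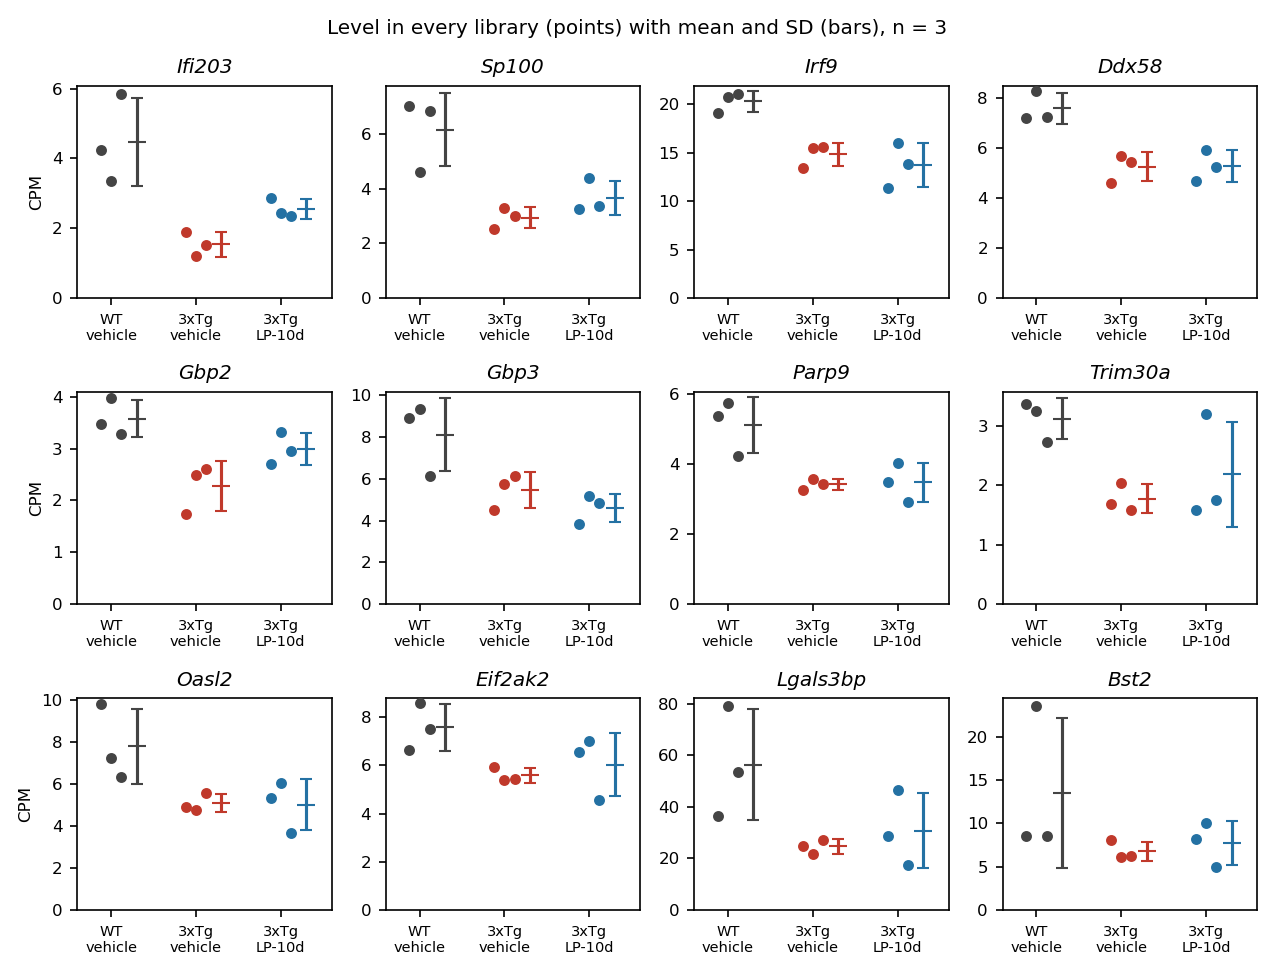
CPM of 12 genes in every library (points), with mean and SD of the 3 libraries beside them (bars), in WT vehicle (grey), 3xTg vehicle (red) and 3xTg LP-10d (blue). Ifi203, Sp100, Irf9, Ddx58, Oasl2 and Parp9 have both 3xTg groups wholly below wild type, and Bst2 and Lgals3bp have a wide spread in wild type.

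The wild-type libraries differed among themselves. WT vehicle replicate 3 was the lowest of its group in 24 of the 34 genes. For 9 genes its level was under 0.6 of the mean of replicates 1 and 2: Usp18 (0.219), Oas1a (0.314), Ifit3 (0.367), Ifi27 (0.406), Isg15 (0.422), Ifit1 (0.477), Irf7 (0.513), Bst2 (0.531) and Rsad2 (0.539). Among those 9, Isg15, Ifit1, Ifit3, Oas1a, Rsad2 and Bst2 held a match to the response element core and Irf7 held none. The promoters of Usp18 and Ifi27 were not read. For 11 genes the ratio was at least 0.9, among them Ifi203 (1.54), Sp100 (1.18), Irf9 (1.06), Ddx58 (0.934) and Lgals3bp (0.929). These genes were as high in WT vehicle replicate 3 as in the other wild-type libraries or nearly so. The 9 and the 11 were separated after their values were seen. Matches to the response element core were not limited to the 9: Stat2, Ddx58, Ifi203, Eif2ak2 and Trim12a of the 11 also held one. The rest of the 11, Irf1, Irf9, Samhd1, Sp100, Xaf1 and Lgals3bp, held none.

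**Figure D5:**
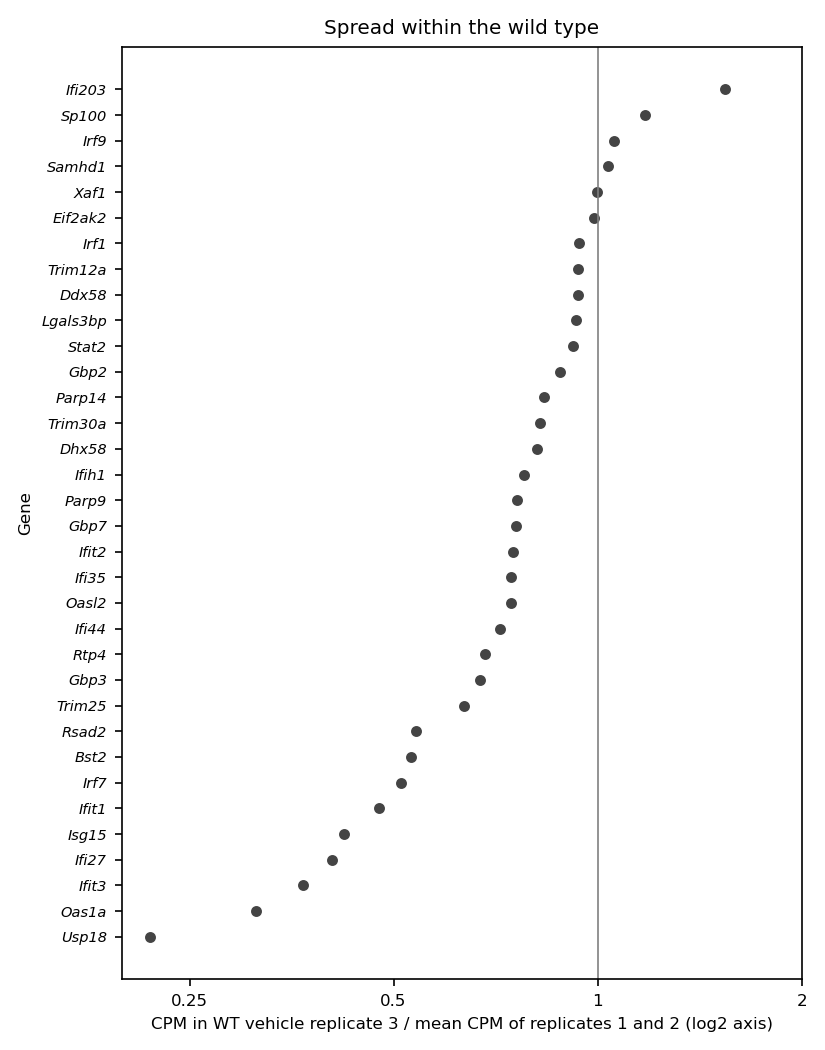
Ratio of the CPM in WT vehicle replicate 3 to the mean CPM of WT vehicle replicates 1 and 2 for each of the 34 tested genes, on a log2 axis; the line marks equal levels. Usp18 is lowest at 0.219 and Ifi203 highest at 1.54.

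Without WT vehicle replicate 3, all 35 genes passed the filter on low counts and all 35 had fold changes below 0 in 3xTg vehicle, with a median of -0.71. At an unadjusted p under 0.05, 22 were lower, against 6.28% of all genes in that fit. The adjusted threshold was passed by 0 of the 35, and by 1 of all 17709 genes. The log2 fold change of Usp18 was then -1.17 ± 0.28 in place of -0.73 ± 0.47, that of Isg15 -0.91 ± 0.25 and that of Zbp1 -1.47 ± 0.36 (edgeR adjusted p = 0.165, 0.195 and 0.176). Trim12a, at -0.44 ± 0.20, no longer had an unadjusted p under 0.05 (0.0517). The mitochondrial share and the tissue markers of this library were given above, and their part in its levels was not tested. With WT vehicle replicate 1 or replicate 2 left out instead, 11 genes were lower at that p in each fit. The shares of all genes were then 9.38% and 9.37%.

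Without 3xTg vehicle replicate 2, the library with the highest striatum and thalamus markers, 35 of 35 genes were lower in 3xTg vehicle than in WT vehicle, with a median of -0.54. At an unadjusted p under 0.05, 11 were lower, against 5.27% of all genes in that fit. The adjusted threshold was passed by 0 of the 35, and by 0 of all 17699 genes. The unadjusted p moved past 0.05 for Eif2ak2 (0.079), Bst2 (0.08) and Trim12a (0.0863). Gbp7, a GTPase of the same family as Gbp2, moved from -0.29 ± 0.24 to -0.54 ± 0.25 on the log2 scale.

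LP-10d treatment was compared with vehicle within the 3xTg mice, the comparison that asks what the compound changed. Of 34 genes, 16 were lower and 18 higher in treated mice, against 50.1% lower over all genes, with a median log2 fold change of 0.01. None passed the adjusted threshold in edgeR, as none of all genes did (0%). None passed in DESeq2, against 0.00575% of all genes lower and 0% higher. At an unadjusted p under 0.05, 1 was higher (Ifi203), against 0.948% of all genes, and 0 were lower, against 1.95%. Ifi203 did not keep that p when 3xTg vehicle replicate 2 was left out (log2 fold change 0.58 ± 0.30, unadjusted p = 0.0852), and 0 genes were higher at that p without 3xTg vehicle replicate 3 or without 3xTg LP-10d replicate 1. Libraries did not overlap for Ifi203 and Gbp2, both higher (5.82% of all genes), and for Stat2, lower (5.81%). The absolute log2 fold change was at most 0.25 for 25 of the 34 genes. Treated replicate 2 was the highest of its group in 26 of the 34 genes, and without it 26 of 35 genes were lower in treated mice. That library also held the highest choroid plexus markers of the treated group, and their part in its levels was not tested.

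Treated 3xTg mice were also set against wild type. This comparison shares the WT libraries with that of 3xTg vehicle, so the values are given side by side and are not independent. In 3xTg LP-10d, 33 of 34 genes were lower than in WT vehicle, against 50.5% of all genes, with a median of -0.52 against -0.0027 for all genes. None passed the adjusted threshold in edgeR (0% of all genes passed). None passed in DESeq2 either, against 0.109% of all genes lower and 0.155% higher. At an unadjusted p under 0.05, 14 were lower, against 4.67% of all genes, and 0 were higher, against 4.08%. Libraries did not overlap for 11 genes, all lower, against 6.89% of all genes lower and 7.49% higher. Dhx58 was again the exception, at 0.10 ± 0.20. Without WT vehicle replicate 3, 21 of 35 tested genes were lower at an unadjusted p under 0.05, against 3.73% of all genes in that fit. Without WT vehicle replicate 1 or replicate 2, 11 of 34 were, against 7.4% and 7.91% of all genes.

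The interferons themselves were at or near 0. Of 21 interferon genes found in the count table, 19, among them Ifnb1 and Ifng, had no read in any of the 9 libraries. A count of 0 allows up to 3 counts in a library. Ifna2 had 4 reads over all libraries and Ifnab had 1. All 6 receptor genes were tested and had fold changes below 0 in 3xTg vehicle, with a median of -0.17 and none past the adjusted threshold. Il10rb, a subunit of the interferon lambda receptor, had -0.43 ± 0.17 (edgeR adjusted p = 0.318), and Ifnar2, a subunit of the type I receptor, had -0.11 ± 0.14.

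Downstream of the receptors, 12 of 19 tested JAK-STAT genes were lower in 3xTg vehicle, with a median of -0.07 and none past the adjusted threshold. Stat3 had -0.22 ± 0.08 and Stat5b 0.47 ± 0.17 (edgeR adjusted p = 0.279 and 0.283). Among 9 other genes named for interferon regulatory factors, 6 were lower, with a median of -0.11. Of 24 tested sensing and adaptor genes, 17 were lower, with a median of -0.19 and none past the adjusted threshold. Traf3, an adaptor of interferon induction, had -0.31 ± 0.08, and Aim2, a DNA sensor of the inflammasome, had -0.82 ± 0.26 (edgeR adjusted p = 0.194 and 0.246).

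A broader list of 110 other interferon-induced genes had 68 tested. It was also chosen with earlier results of these data known, so its shares are a description only. In 3xTg vehicle 54 of the 68 were lower than in WT vehicle, against 49.8% of all genes, with a median of -0.27. At an unadjusted p under 0.05, 16 were lower and 1 higher, against 7.08% and 7% of all genes, and none passed the adjusted threshold. Helz2, a helicase coactivator, had -0.58 ± 0.14, and Ms4a6b, a membrane protein of immune cells, had -1.12 ± 0.31 (edgeR adjusted p = 0.146 and 0.195). In 3xTg LP-10d 51 of the 68 were lower than in WT vehicle, with a median of -0.29. Between treated and untreated 3xTg mice, 34 of the 68 were lower.

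Several of the lower genes lie in clusters of relatives. Ifi203 (chromosome 1, 173920407 to 173942672, minus strand, mm10) had 2 tested neighbours within 500 kb. They were Mndal, of the same family, at -1.23 ± 0.33, and Aim2, and in both no 3xTg vehicle library reached a WT library. Near Sp100 (chromosome 1, 85649988 to 85709998, plus strand), its relative Sp110 had -0.80 ± 0.23 (edgeR adjusted p = 0.214). The 10 other tested genes in that window were split, 5 of them lower, with a median of -0.0042. In the Trim cluster of chromosome 7, Trim30d had -0.98 ± 0.25, Trim34a -0.40 ± 0.32 and Trim12c -0.28 ± 0.24, beside Trim30a and Trim12a. Near Gbp2 on chromosome 3, Gbp5 had -0.27 ± 0.22 and Gbp7 -0.29 ± 0.24, while the 5 tested neighbours of other families had a median of 0.09. Near Parp9 on chromosome 16, 1 of 8 other neighbours was lower (median 0.10). Around Oas1a on chromosome 5, 12 of 20 were lower (median -0.02), and around Ifit3 on chromosome 19, 4 of 7 were lower (median -0.22), 2 of them at an unadjusted p under 0.05. Members of these families are similar in sequence, and reads that fit several of them may have been divided between them in the deposited counts.

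Set against the promoters, the 16 genes with the response element core had a median log2 fold change of -0.52 in 3xTg vehicle, and the 12 genes without it had -0.38. For 3xTg LP-10d against wild type the medians were -0.51 and -0.44. For the shorter element of STAT dimers the order was the other way. The 8 genes with it had a median of -0.30 in 3xTg vehicle and the 20 without it -0.58. In 3xTg LP-10d against wild type these medians were -0.32 and -0.54. All of these classes were lower, and the differences between them were not tested. The median ratio of WT vehicle replicate 3 to the mean of replicates 1 and 2 was 0.768 with the response element core and 0.84 without it, also not tested.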

How the data were processed

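Counts of reads per Ensembl gene were deposited by the authors as raw values for 55471 genes, and FPKM values were deposited by the authors for 33175 genes with symbols and positions. TRIzol and column extraction gave the RNA, of which 300 ng entered an MGI library kit, per the labels' protocols. The submitters' processing notes name mm10. For aligner, counter and strandedness the sources used here give nothing. The 35 genes and the gene lists were chosen with earlier results of these data known. Counts of all 9 libraries were fitted together in edgeR 4.0.16 (R 4.3.3; filterByExpr, TMM, quasi-likelihood test), with Benjamini-Hochberg adjustment over 17396 genes and a threshold of 0.05. With 3 libraries a group, the smallest p of an exact permutation test is 0.1. Per-library values are given for genes with an unadjusted p under 0.05 in a comparison and a mean of at least 1 CPM. They are also given for Zbp1, the gene not tested. From each gene list, up to 4 genes with the smallest p may be named, and any relative within 500 kb. Alternatives were DESeq2 1.42.0, limma 3.58.1 (voom, and trend on the deposited FPKM), other scalings and filters, a fit of 6 libraries, a replicate block and leaving out libraries. The methods were tested on simulated data. Promoter letters come from RefSeq tables and gene positions from the deposited annotation. Replicate numbers in the labels were checked for pairing by the correlation of deviations from group means. For 3xTg vehicle with 3xTg LP-10d, the same-numbered pairs had 0.173, 0.104 and 0.375. Same-numbered pairs with WT vehicle ran from -0.178 to 0.16, the highest for WT vehicle replicate 2 with 3xTg LP-10d replicate 2. 3xTg vehicle replicate 1 correlated more strongly with a treated library of another number, so a pairing by number was not established.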

Additional observations from a re-analysis of the deposited data

How the results depend on the processing

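The medians of both comparisons with wild type stayed below 0 under every alternative run, and that of 3xTg LP-10d against 3xTg vehicle, near 0, changed sign when single libraries were left out. DESeq2 passed 3 genes in 3xTg vehicle against WT vehicle (352 of all genes, against 1 in edgeR); no other setting passed a member. The median log2 fold change in that comparison was -0.22 on log2(FPKM + 1), a scale that understates low genes, and -0.71 without WT vehicle replicate 3; without that library and 3xTg vehicle replicate 2 it was -0.70. For 3xTg LP-10d against WT vehicle the median was -0.19 on log2(FPKM + 1). Leaving out each library in turn gave medians of -0.71 to -0.36 for 3xTg vehicle against WT vehicle, -0.63 to -0.39 for 3xTg LP-10d against WT vehicle and -0.08 to 0.09 for 3xTg LP-10d against 3xTg vehicle. Lower genes numbered 31 to 35, 29 to 34 and 11 to 26 in the same order, with 26 when treated replicate 2 was left out. Interferon-response genes past the threshold numbered 0 to 0 in each. Of all genes, at most 11 of 17681 passed in 3xTg vehicle against WT vehicle (without WT vehicle replicate 2). At most 2 of 17752 passed in 3xTg LP-10d against WT vehicle, and 0 in 3xTg LP-10d against 3xTg vehicle.

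Same-numbered libraries correlated from 0.104 to 0.375 in pairs of 3xTg vehicle with 3xTg LP-10d, and from -0.178 to 0.16 in pairs with WT vehicle. These ranges overlap, so the numbers were not taken to pair the libraries. With the replicate block, 0 of the 34 interferon-response genes passed in each comparison, and it changed no call among them. Of all 17396 genes in that fit, 1 passed in 3xTg vehicle against WT vehicle and 0 in each of the other comparisons. The blocked median was 0.009 for 3xTg LP-10d against 3xTg vehicle, -0.53 for 3xTg LP-10d against WT vehicle and -0.47 for 3xTg vehicle against WT vehicle. In the last, 13 genes were lower at an unadjusted p under 0.05 in place of 14, against 6.85% of all genes in that fit. Depth limits the genes with few reads, such as Zbp1.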
